A study of Mus musculus with 2 samples.

Results

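The 10 genes of Wnt signaling in liver zonation described here were selected by symbol from the transcript table: the ligand Wnt2, the secreted amplifier Rspo3, its receptors Lgr4 and Lgr5, the ubiquitin ligases Rnf43 and Znrf3, the destruction complex scaffolds Axin2 and Apc, beta-catenin itself (Ctnnb1) and the transcription factor Tbx3. They are 10 of 45777 genes in the table, and all 10 were among the 15857 genes with at least 10 estimated counts in at least 1 library. Liver RNA of C57BL/6 N mice (C57BL/6 in the sample labels) was measured by sequencing of poly-A RNA. All mice compared here had been fed a high-fat diet (HFD) for 18 weeks from 7 weeks of age. At week 13 of the diet, 5 weeks before its end, they received an adeno-associated virus by the retro-orbital route, carrying either GFP (AAV-GFP, the control) or the long noncoding RNA Wee1-AS (AAV-Wee1-AS). The vector described for AAV-Wee1-AS was of serotype AAV9 with the CMV promoter, which is not restricted to hepatocytes, and Wee1-AS itself was not analysed here. The table holds 1 library for each group, whereas 4 liver samples are mentioned in the series design, and nothing read here says whether mice were pooled. No replicate check and no test of a difference between the groups is therefore possible. The intervals below are exact (Clopper-Pearson) 95% intervals that treat the estimated counts as reads. They cover counting error only, so that they compare these 2 libraries and not the treatments. The libraries held 55466182 (AAV-GFP) and 48079335 (AAV-Wee1-AS) estimated counts. All 13 hepatocyte markers of a fixed list were detected, and Alb, which encodes albumin, stood at 37459 and 53289 TPM (transcript abundance scaled to transcript length and to an equal sum in each library).

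In the liver lobule, blood runs from the portal tract to the central vein, and hepatocytes along this path carry out different metabolic tasks. Endothelial cells of the central vein and the nearby sinusoids secrete Wnt2, Wnt9b and Rspo3. The Wnt ligands bind Frizzled and LRP receptors and disable the destruction complex, in which Apc and Axin proteins hold beta-catenin for phosphorylation and degradation, so that beta-catenin accumulates and turns on pericentral genes such as Glul, Cyp2e1 and Cyp1a2 with TCF factors. Rnf43 and Znrf3 remove Frizzled receptors from the cell surface, and R-spondins bound to Lgr4 or Lgr5 prevent this. Axin2, Lgr5, Rnf43, Znrf3 and Tbx3 are known targets of the pathway in hepatocytes.

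The sequences shown are the 250 bases upstream of the RefSeq start site for 3 members: Axin2, the usual reporter of the pathway, Lgr4, the member with the largest ratio among those matched to a promoter entry, and Wnt2, the only member that was lower in the AAV-Wee1-AS library. RefSeq windows (GRCm38.p6) were matched for 5 members (Axin2, Lgr4, Wnt2, Ctnnb1 and Rnf43). Bases in capitals are CG pairs. The Axin2 window lies at chr11:108920099-108920348 (plus strand), that of Lgr4 at chr2:109917397-109917646 (plus strand) and that of Wnt2 at chr6:18030446-18030695 (minus strand).
Axin2: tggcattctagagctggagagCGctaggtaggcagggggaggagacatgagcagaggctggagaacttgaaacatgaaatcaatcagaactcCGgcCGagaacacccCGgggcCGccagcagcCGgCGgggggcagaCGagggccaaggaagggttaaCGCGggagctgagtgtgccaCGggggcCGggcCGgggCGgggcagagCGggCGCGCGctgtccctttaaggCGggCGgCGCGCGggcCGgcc
Lgr4: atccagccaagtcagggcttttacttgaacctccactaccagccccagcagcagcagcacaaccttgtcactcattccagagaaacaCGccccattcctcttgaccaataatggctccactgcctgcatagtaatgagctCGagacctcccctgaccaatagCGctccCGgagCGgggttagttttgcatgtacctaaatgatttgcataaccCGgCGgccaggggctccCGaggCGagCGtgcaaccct
Wnt2: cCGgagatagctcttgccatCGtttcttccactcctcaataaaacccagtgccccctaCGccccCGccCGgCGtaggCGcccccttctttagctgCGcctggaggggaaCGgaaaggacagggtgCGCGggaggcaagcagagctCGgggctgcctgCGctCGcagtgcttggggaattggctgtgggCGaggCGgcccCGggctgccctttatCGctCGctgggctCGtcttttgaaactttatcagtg
The Axin2 window had a GC content of 69.2% with 24 CG pairs, the Wnt2 window 63.6% with 20 and the Lgr4 window 55.6% with 10. The core letters of a TCF site (CTTTG and then A or T at each of the next 2 bases, on either strand) were found in none of the 7 windows of 300 bases that belong to these 5 members, against 16.9% of all 32851 windows. The shorter string CTTTG, which those letters contain, was in none of the 7 windows and in 53.9% of all windows. These windows cover only the bases around a start site, and sites elsewhere in the genes were not searched. The Ctnnb1 windows overlap each other, so the 7 are not independent. The shares over all windows were not matched for GC content, so the absence is only a description of these windows.

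Of the 10 genes, 9 had a higher scaled count (the estimated count adjusted between libraries by the TMM method) in the AAV-Wee1-AS library and 1 a lower one, and of all genes kept 49.5% were higher. The 4 genes Apc, Lgr4, Rspo3 and Tbx3 were past 2-fold higher, and 0 were below 0.5-fold, the fold limits used for this experiment. Of all genes kept, 22.2% were above 2-fold and 8.71% below 0.5-fold. The interval lay wholly above 2-fold in 3 of the 10 genes, and in 16.0% of all genes. The median log2 ratio of the 10 genes was 0.61, against -0.02 over all genes kept. The interval lay wholly above 0 in 8 genes, against 39.1% of all genes, and held 0 in the other two, Rnf43 and Wnt2.

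**Figure D1:**
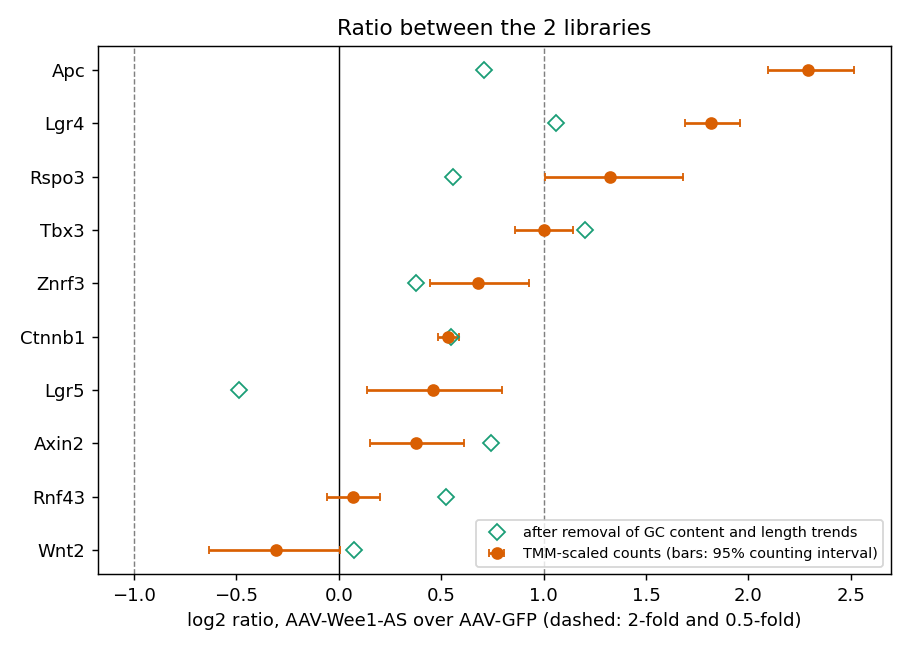
Log2 ratio of scaled counts (horizontal axis) for each of the 10 genes, with filled points for the ratio, bars for its exact 95% counting interval, open diamonds for the ratio after the GC content and length trends were removed, and dashed lines at 2-fold and 0.5-fold. Apc, Lgr4 and Rspo3 lie wholly above the 2-fold line before removal of the trends, and Lgr4 and Tbx3 lie above it after removal.

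Across the whole table, genes of low GC content were higher in the AAV-Wee1-AS library. Over 14995 genes with a GC value, the Spearman coefficient of the log2 ratio with GC content was -0.67, and over the 10 genes it was -0.67 too, both given as descriptions across genes that share the same 2 libraries. With transcript length the coefficient was 0.35 over all genes and 0.61 over the 10. In the decile of genes with the lowest GC content the median log2 ratio was 1.43 and 65.4% of genes were above 2-fold. In the decile with the highest GC content the values were -0.69 and 1.20%. When both trends were removed, 7.39% of genes were above 2-fold and 8.53% below 0.5-fold. Of the 10 genes, 2 (Tbx3 and Lgr4) were then above 2-fold, 0 below 0.5-fold, and the median log2 ratio was 0.55. After this step 9 were above 0, against 7494 of 14995 genes over the table, but not the same 9, since Wnt2 came to lie above 0 and Lgr5 below it. With 1 library per group, the treatment and any difference in preparation between the libraries cannot be told apart.

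**Figure D2:**
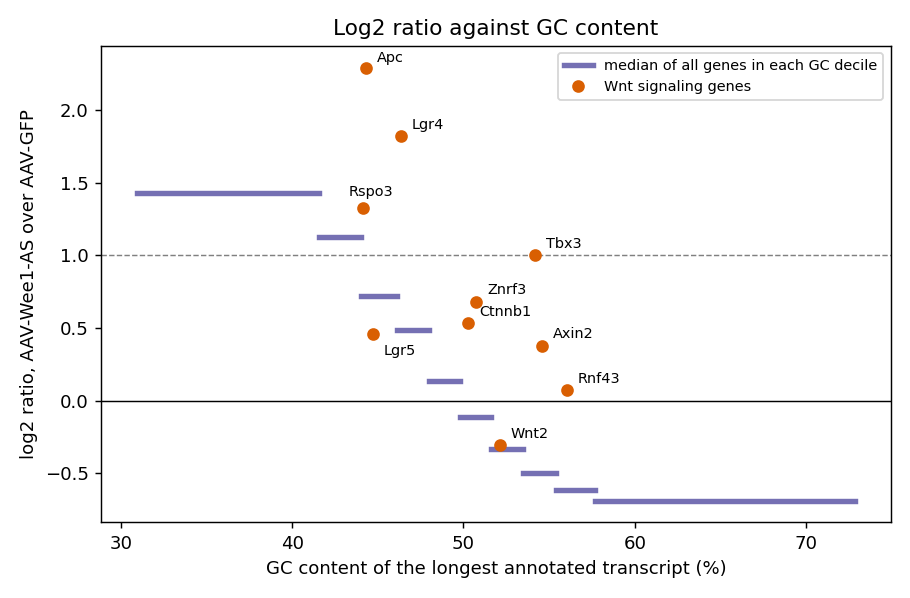
Log2 ratio (vertical axis) against the GC content of the longest annotated transcript in percent (horizontal axis), with bars for the median of all genes in each decile of GC content and points for the 10 genes. The medians run from 1.43 in the lowest decile to -0.69 in the highest, and Tbx3 and Axin2 stand above the median of their decile while Lgr5 stands below it.

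Among the ligands, Wnt2 (chr6:17985474-18032772, minus strand) had 204 estimated counts with AAV-GFP and 137 with AAV-Wee1-AS, or 2.58 and 1.77 TPM. Its level was lower in the AAV-Wee1-AS library, with a log2 ratio of -0.31 and an interval from -0.63 to 0.01 that held 0. Rspo3 (chr10:29453106-29535867, minus strand), which encodes the R-spondin that keeps Wnt receptors on pericentral hepatocytes, had 110 and 232 counts, or 1.38 and 3.45 TPM. Rspo3 was 2.50-fold higher in the AAV-Wee1-AS library (log2 ratio 1.32, interval 1.01 to 1.68). Its GC content was 44.1%, in a decile of genes whose median log2 ratio was 0.72 and of which 38.1% were above 2-fold, and its log2 ratio was 0.56 after removal of the trends. Wnt9b, the other Wnt of central vein endothelium, had 135 and 82 counts and a log2 ratio of -0.45, or -0.01 after removal of the trends. The value of Wnt2 after removal of the trends was 0.07. In whole liver RNA, fewer cells of a type and less RNA per cell cannot be told apart. Of 19 liver endothelial cell markers, 7 were higher, 12 were lower and 1 (Ptprb) was past 2-fold, their median log2 ratio was -0.27 (-0.30 after removal of the trends), and their summed level was 530 TPM with AAV-GFP and 376 TPM with AAV-Wee1-AS, with none at 0. Ptprb had a log2 ratio of 1.64, or 0.55 after removal of the trends, and Aqp1, the most abundant, -0.90 and -0.32. The part of endothelial cell content in the values of Wnt2 and Rspo3 was not tested.

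Both R-spondin receptors were higher in the AAV-Wee1-AS library, to different degrees. Lgr4 (chr2:109917647-110014257, plus strand), the receptor found throughout the lobule, had 596 and 1757 counts, or 3.57 and 12.4 TPM. Its ratio was 3.53-fold (log2 ratio 1.82, interval 1.69 to 1.96), and at 46.3% GC it stood above the median of its decile, 0.48. Lgr4 was still past 2-fold after removal of the trends, with a log2 ratio of 1.06. Lgr5 (chr10:115450314-115587780, minus strand), whose transcript is confined to pericentral hepatocytes in normal liver, had 146 and 168 counts, or 0.939 and 1.27 TPM. Its log2 ratio was 0.46 (interval 0.14 to 0.80), below the median of 0.72 of its GC decile, and it was -0.49 after removal of the trends. The direction of Lgr5 therefore turned with this step, while that of Lgr4 did not. Lgr6, the remaining receptor of the family, named after its values were seen, had 0 and 11 counts, at least 4.40-fold higher when the floor of 3 counts is used for the AAV-GFP library.

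The ubiquitin ligases that these receptors restrain when bound by R-spondins were both below 2-fold. Rnf43 (chr11:87663087-87735539, plus strand) had 1034 and 905 counts, or 7.28 and 7.52 TPM. Its log2 ratio was 0.07 and the interval from -0.06 to 0.20 held 0. Under upper-quartile scaling the log2 ratio of Rnf43 was -0.13, and after removal of the trends it was 0.52. Znrf3 (chr11:5276329-5444847, minus strand) had 247 and 331 counts, or 1.09 and 1.71 TPM. The library of AAV-Wee1-AS was higher for Znrf3, by 1.60-fold (log2 ratio 0.68, interval 0.44 to 0.93), and by 0.38 on the log2 scale after removal of the trends.

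Of the destruction complex scaffolds, Apc had the highest ratio of the 10 genes and Axin2 one of the smaller ones. Axin2 (chr11:108917828-108950783, plus strand), a scaffold that is itself induced by beta-catenin, had 306 and 332 counts, or 2.15 and 2.72 TPM. Its log2 ratio was 0.38 (interval 0.15 to 0.61). At 54.6% GC, the genes of its decile had a median of -0.50, and the log2 ratio of Axin2 was 0.74 after removal of the trends. Apc (chr18:34220297-34322190, plus strand), a large tumor suppressor protein that binds beta-catenin, had 231 and 950 counts, or 0.564 and 3.12 TPM. Its ratio was 4.90-fold (log2 ratio 2.29, interval 2.09 to 2.52). Apc also had the longest reference transcript of the 10 genes, 12811 bases against a median of 3107 over all genes, and a GC content of 44.3%. After removal of the trends its log2 ratio was 0.71, below 2-fold.

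Ctnnb1 (chr9:120933400-120960507, plus strand) was the most abundant of the 10 genes, with 6126 and 7399 counts, or 51.3 and 73.2 TPM. It held 68.4% of the summed TPM of the 10 genes with AAV-GFP and 63.5% with AAV-Wee1-AS. Its log2 ratio was 0.54 (interval 0.49 to 0.59), and 0.55 after removal of the trends. Since beta-catenin is regulated by degradation, its mRNA is not a readout of its protein level. Tbx3 (chr5:119670534-119684724, plus strand), a T-box repressor induced by beta-catenin in hepatocytes, had 648 and 1082 counts, or 4.21 and 8.05 TPM. The ratio of Tbx3 was 2.00-fold (log2 ratio 1.00, interval 0.86 to 1.15), right at the limit. Scaling by DESeq2 size factors, library totals or the upper quartile left 3 of the 10 genes past 2-fold, without Tbx3 (21.7%, 21.2% and 18.5% of all genes), whereas DESeq2 size factors computed over the genes kept left 4 (22.5% of all genes). Tbx3 had a GC content of 54.2%, in a decile whose median was -0.50 and of which 2.13% of genes were above 2-fold, and its log2 ratio was 1.20 after removal of the trends.

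The order of the 10 genes by TPM differed between the libraries. In the AAV-GFP library it was Ctnnb1, Rnf43, Tbx3, Lgr4, Wnt2, Axin2, Rspo3, Znrf3, Lgr5 and Apc, and the intervals of Wnt2 and Axin2, of Rspo3 and Znrf3, and of Znrf3 and Lgr5 overlapped. In the AAV-Wee1-AS library it was Ctnnb1, Lgr4, Tbx3, Rnf43, Rspo3, Apc, Axin2, Wnt2, Znrf3 and Lgr5, and the intervals of Tbx3 and Rnf43, of Rspo3 and Apc, of Rspo3 and Axin2, of Apc and Axin2, and of Wnt2 and Znrf3 overlapped. Lgr4 moved from rank 4 to rank 2 and Apc from rank 10 to rank 6, while Wnt2 moved from rank 5 to rank 8. The summed level of the 10 genes was 75.1 TPM and 115 TPM.

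**Figure D3:**
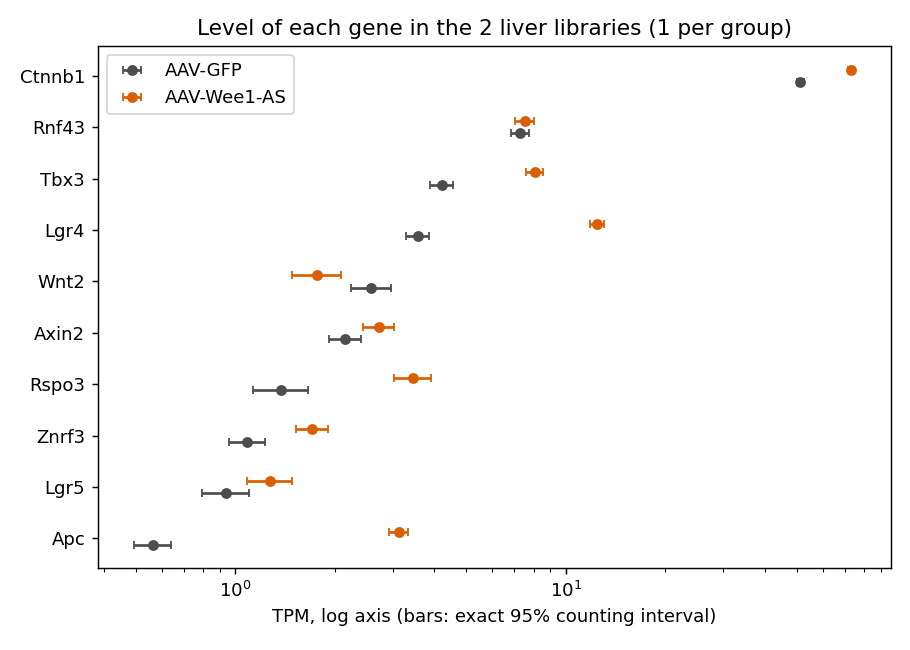
Level of each of the 10 genes in TPM on a log axis (horizontal) in the AAV-GFP and AAV-Wee1-AS libraries, with bars for exact 95% counting intervals of 1 library each. Ctnnb1 stands apart at 51.3 and 73.2 TPM, and the points of Apc, Lgr4 and Rspo3 are farthest apart between the libraries.

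The table lists 51 transcripts of the 10 genes, of which 22 had counts. For 4 genes (Lgr4, Lgr5, Rnf43 and Rspo3) a single transcript held every count, and for Ctnnb1 NM_007614 held 99.9% in each library. The counts of the other genes were divided among transcripts by estimation, so that a share is an assignment and not a count of reads that distinguish the transcripts. For Tbx3, the shares of the 2 main transcripts differed between the libraries. NM_011535 (variant 1) had 546 counts with AAV-GFP and 398 with AAV-Wee1-AS, while NM_198052 (variant 2) had 102 and 435. The share of variant 1 was 84.3% (interval 81.2% to 87.0%) and 36.8% (33.9% to 39.7%), and that of variant 2 was 15.7% (13.02% to 18.8%) and 40.2% (37.3% to 43.2%). A predicted transcript, XM_006530276, held the rest, with 0 and 249 counts.

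Variant 1 of Tbx3 carries an exon that variant 2 lacks, exon 3, at chr5:119675243-119675302 on the plus strand of GRCm38, which lies in the coding sequence. It is shown because the 2 main Tbx3 transcripts differ in it. The exon is in capitals, with 30 bases of the neighboring exons on each side in lower case, followed by the junction without it.
Tbx3 variant 1: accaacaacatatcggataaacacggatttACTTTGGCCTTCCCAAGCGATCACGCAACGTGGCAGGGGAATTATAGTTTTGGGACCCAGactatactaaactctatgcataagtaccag
Tbx3 variant 2: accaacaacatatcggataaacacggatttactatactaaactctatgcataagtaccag
The exon has 60 bases with a GC content of 53.3% and adds 20 codons without a change of reading frame, as the coding sequences have 2223 and 2163 bases. The variants also begin at different positions, so the shares do not measure the use of this exon alone. Taken alone, variant 1 had a log2 ratio of -0.19, against 1.00 for the gene, so that the higher total of Tbx3 lay in variant 2 and the predicted transcript.

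Axin2 showed a similar division. NM_015732 had 253 and 178 counts, and its share was 82.7% (interval 78.0% to 86.7%) with AAV-GFP and 53.6% (48.1% to 59.1%) with AAV-Wee1-AS. XM_006532057 had 53 and 141 counts. NM_015732 alone had a log2 ratio of -0.24, the opposite direction to the gene total. For Wnt2, NM_023653 had 166 and 85 counts (log2 ratio -0.69 alone) and XM_006505045 had 38 and 52. Both transcripts of Znrf3 were higher by count, with 162 and 236 for NM_001290501 and 85 and 95 for NM_001080924. For Apc, 31 transcripts are listed, 4 had counts with AAV-GFP, 2 with AAV-Wee1-AS and 0 had counts in both, so that no single transcript of Apc could be compared and its value rests on the sum.

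**Figure D4:**
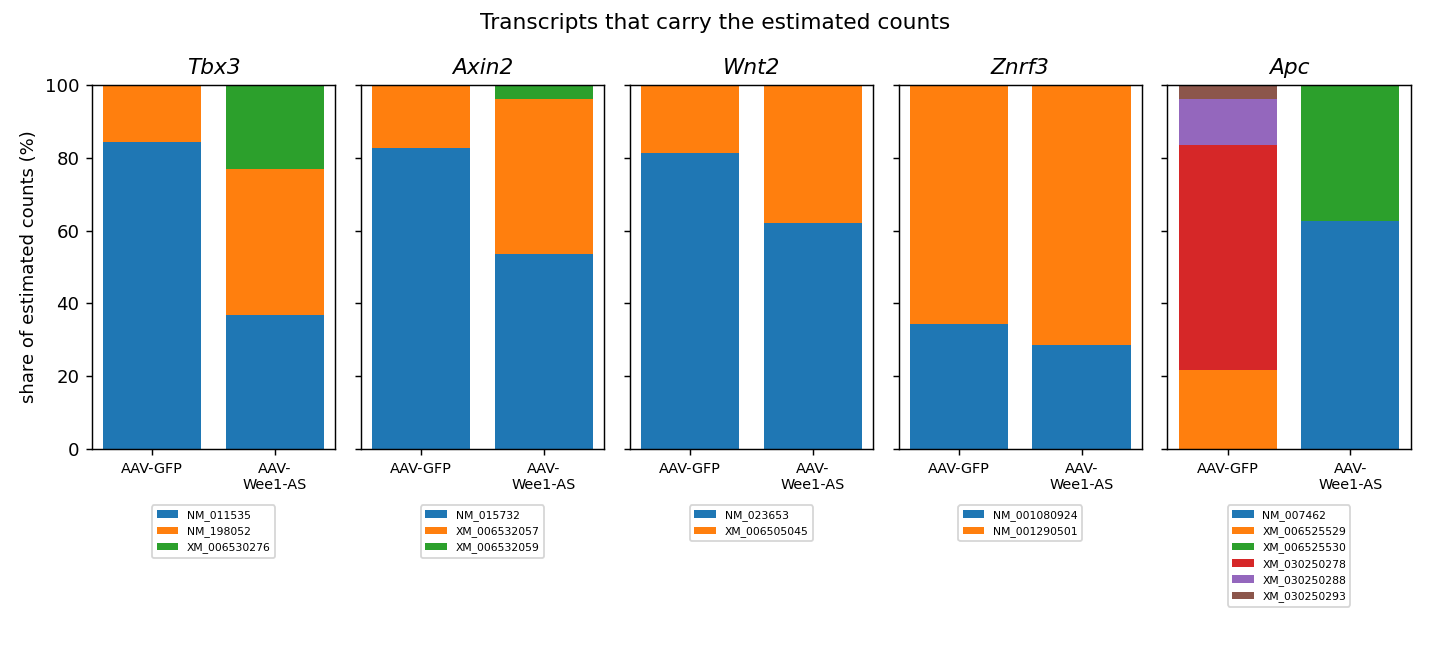
Share of the estimated counts of a gene in percent (vertical axis) held by each transcript with counts, as stacked bars for the AAV-GFP and AAV-Wee1-AS libraries, for 5 genes. NM_011535 of Tbx3 goes from 84.3% to 36.8% and NM_015732 of Axin2 from 82.7% to 53.6%, and the Apc bars share no transcript.

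Several annotated genes overlap a member, and the strand setting of the counting is not given in the sources used here. Within Rnf43 lies 1110028F11Rik, with 127 and 93 counts. Tbx3os1 overlaps the start of Tbx3, with 13 and 9 counts, and Gm10548 overlaps that of Apc, with 5 and 5. A930009A15Rik in Lgr5, LOC115487861 in Rnf43 and Mir7090 in Ctnnb1 were at 0 in both libraries. Each of these genes had fewer counts than the member it overlaps. The counts of 1110028F11Rik, the highest among them, stood beside 1034 and 905 for Rnf43.

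Among the other genes of the pathway, the list medians lay on both sides of 0. Over the 70 genes kept that are not members, 32 were higher and 38 lower, 15 were above 2-fold and 5 below 0.5-fold, and the median log2 ratio was -0.05, or 0.10 after removal of the trends, when 4 were above 2-fold and 4 below 0.5-fold. Of 19 Wnt ligands, 8 were kept and 10 were at 0 in both libraries. The median log2 ratio of the 8 was -0.54 (-0.15 after removal of the trends), with 2 higher and 6 lower, and Wnt5b, a ligand of noncanonical signaling, was the most abundant, at 7.30 and 7.33 TPM (log2 ratio 0.04, or 0.82 after removal of the trends). The 2 ligands below 0.5-fold, named after their values were seen, were Wnt2b and Wnt7b. Wnt2b had 10 and 2 counts, a ratio of 0.376 with an interval on the log2 scale from -5.29 to 0.17, and was at -0.81 after removal of the trends, no longer below 0.5-fold. Wnt7b had 10 and 0 counts, at least 2.78-fold lower against the floor of 3 counts, and 1 of the 8 ligands was below 0.5-fold after removal. The deacylase gene Notum, a secreted Wnt inhibitor that is itself a Wnt target, had 16.2 and 11.3 TPM and a log2 ratio of -0.54, which was 0.24 after removal of the trends.

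Of 15 Frizzled receptors and co-receptors, 12 were kept, 8 were higher, 4 lower, 4 above 2-fold and 0 below 0.5-fold, with a median log2 ratio of 0.59, or 0.36 with 1 above 2-fold after removal of the trends. The related co-receptors Lrp5 and Lrp6 differed in direction. Lrp5 had 6796 and 3290 counts (39.9 and 22.8 TPM, log2 ratio -0.78), whereas Lrp6 had 732 and 2973 counts (2.37 and 11.4 TPM, log2 ratio 2.28). Their GC contents were 54.7% and 46.0%, and after removal of the trends the log2 ratios were -0.92 and 1.08. Fzd4, the Frizzled of endothelial cells among others, had 520 and 1230 counts and a 2.83-fold ratio, or 0.64 on the log2 scale after removal of the trends. Ror1, a receptor of noncanonical Wnts, had 75 and 136 counts and a log2 ratio of 1.10, or 0.38 after it.

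All 23 genes of the list for Dishevelled proteins, the destruction complex and its turnover were kept. Of these genes, 11 were higher and 12 lower, 8 above 2-fold and 1 below 0.5-fold. Their median log2 ratio was -0.04, or 0.29 under a filter of 50 counts. Those with the largest ratios after Apc were the tankyrase Tnks2, which marks Axin for degradation (520 and 1716 counts, log2 ratio 1.98), the casein kinase gene Csnk1g1 (75 and 247 counts, 1.95) and Tnks, the other tankyrase (273 and 806 counts, 1.82). After removal of the trends the median was 0.16, and 0 of the 23 were above 2-fold and 2 below 0.5-fold. The latter, named after their values were seen, were Btrc, a ubiquitin ligase subunit gene (1001 and 798 counts, -0.06 before and -1.51 after), and Apc2, a relative of Apc (34 and 10 counts, -1.35 and -1.29). The values after removal were 0.79 for Tnks2, 0.86 for Csnk1g1 and 0.75 for Tnks. Gsk3a, the most abundant kinase of the list, had 60.5 and 36.1 TPM and a log2 ratio of -0.68, which turned to 0.10 after removal of the trends. Across the 23 genes the Spearman coefficient of the log2 ratio with GC content was -0.78.

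Of 17 genes for beta-catenin and its nuclear partners, 15 were kept, 5 higher and 10 lower, with a median log2 ratio of -0.36, or 0.05 after removal of the trends. Ctnnbip1, an inhibitor that keeps beta-catenin from TCF factors, had 998 and 380 counts and a log2 ratio of -1.13, or -0.53 after removal of the trends. Chd8, a chromatin remodeler that binds beta-catenin, had 900 and 1563 counts and a log2 ratio of 1.06, or 0.39 after removal of the trends, when 0 of the 14 genes with a GC value were past either limit. Tle5, a member of the Groucho family and the most abundant of the list, had 776 and 493 TPM and a log2 ratio of -0.63. Tle5 had no GC value, so it has no ratio after removal of the trends. The secreted and surface inhibitors, of which 7 of 14 were kept, had a median log2 ratio of -0.22, or -0.08 after removal of the trends and 0.33 with no count filter, with 3 higher and 4 lower, 2 above 2-fold and 1 below 0.5-fold, before and after removal. These 3, named after their values were seen, had few counts: Wif1 had 0 and 18 (at least 7.20-fold higher against the floor), Dkk4 had 6 and 13, and Apcdd1 had 12 and 0 (at least 3.33-fold lower). Their most abundant gene, Kremen1, had 8.19 and 6.05 TPM (log2 ratio -0.43, or -0.15 after removal of the trends).

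Beside the pathway stood the hepatocyte genes that it positions. Of 26 Wnt-dependent pericentral genes, 14 were higher and 12 lower, 5 above 2-fold and 4 below 0.5-fold, and the median log2 ratio was 0.14, while 2 and 2 were past these limits after removal of the trends. Glul, which encodes glutamine synthetase, had 997 and 928 TPM (log2 ratio -0.08), Cyp1a2 had 200 and 189 TPM (-0.06) and Cyp2e1 had 8642 and 9843 TPM (0.21). Glul stayed at -0.08 after removal of the trends, while Cyp1a2 (0.40) and Cyp2e1 (-0.05) turned direction. The largest ratios belonged to Gstm3, a glutathione transferase gene (13001 and 1842 counts, log2 ratio -2.55), Cyp7a1, the rate-limiting enzyme of bile acid synthesis (486 and 2362 counts, 2.54), Rgn (11728 and 44209 counts, 2.18) and the glutamate transporter Slc1a2 (4042 and 9800 counts, 1.54). After removal of the trends the values were -2.05, 1.16, 1.16 and 0.14.

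Of 22 periportal genes, 14 were higher and 8 lower, 4 above 2-fold and 1 below 0.5-fold, with a median log2 ratio of 0.22. Cps1, which feeds ammonia into the urea cycle, had 347 and 787 TPM (log2 ratio 1.21, and 0.43 after removal of the trends). Ass1, a later enzyme of the cycle, had 3675 and 3282 TPM (-0.14), and the glutaminase gene Gls2 had 207 and 185 TPM (-0.14). Both turned direction after removal of the trends, to 0.49 for Ass1 and 0.55 for Gls2. Otc, another urea cycle gene, had the largest ratio (5871 and 15740 counts, 1.69), and Hsd17b6 the lowest (16810 and 5961 counts, -1.23). After removal of the trends Otc was at 0.55 and Hsd17b6 at -1.20, and of the 22 genes 0 were above 2-fold and 2 below 0.5-fold (the other, chosen after its values were seen, was Igf1, 0.80 before and -1.01 after). Ctsc, a protease gene, went from 1.19 to 0.00, and Serpina1c, the most abundant of the list, had 8633 and 9181 TPM (0.11, and 0.48 after removal). The medians of the pericentral and periportal lists lay on the same side of 0, before and after removal of the trends (0.13 and 0.36 after it), but under upper-quartile scaling they lay on opposite sides, at -0.0707 and 0.01.

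**Figure D5:**
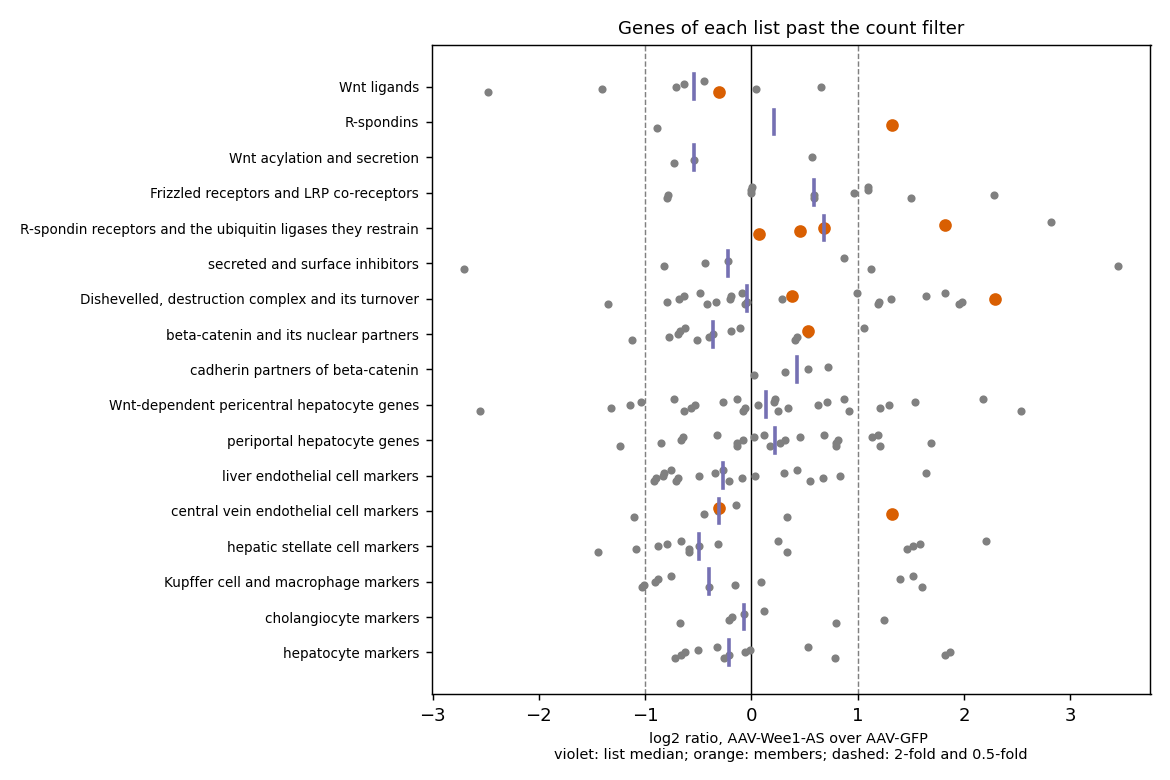
Log2 ratio (horizontal axis) of every gene past the count filter in each of 17 lists, with a violet line for the list median, orange points for genes among the 10, grey points for the others and dashed lines at 2-fold and 0.5-fold. The medians lie between -0.54 for the Wnt ligands and 0.68 for the R-spondin receptors with their ligases, and single genes of most lists lie on both sides of 0.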

How the data were processed

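The authors sequenced poly-A RNA with a stranded kit and deposited 1 table of 129299 RefSeq transcripts of mouse build mm10. The submitters' processing notes name Trimmomatic 0.38, HISAT2 2.1.0, SAMtools 1.9 and StringTie 2.1.3b. For each library the deposited table holds estimated counts, which are not normalized and rounded up to whole numbers, and deposited FPKM and TPM values that the authors scaled by transcript length and library. Transcript length in bases is also given by the authors.

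Estimated counts were summed per gene symbol. Libraries were scaled by TMM over the whole table (edgeR 4.0.16, R 4.3.3; factors 1.02 and 0.980), and log2 ratios of AAV-Wee1-AS over AAV-GFP were taken with a prior count of 2 for genes that reached 10 counts in either library. No test was made with 1 library per group. A fold against a library at 0 counts was computed as a bound, with that library set to 3 counts. GC content came from the longest GENCODE M21 transcript of 14995 genes (94.6% of those kept), and trends were removed by lowess (span 0.3, 5 cycles). Promoter windows came from RefSeq. Lowess fits used statsmodels 0.14.6, intervals scipy 1.17.1, tables pandas 2.3.3 and numpy 2.4.6, and plots matplotlib 3.10.9, all in Python 3.11.15. Scaling, ratios, intervals and removal of a GC content trend were tested on simulated gene counts. A length trend and the division of counts among transcripts were not simulated. The 10 genes and all lists were chosen with earlier results of these data known. Genes named are the 10, overlapping genes, 7 fixed zonation genes and, from each list, at most 4 past 2-fold with at least 20 counts in 1 library and the most abundant gene. Other genes named (Lgr6, Wnt2b, Wnt7b, Wif1, Dkk4, Apcdd1, Btrc, Apc2, Igf1, Ngfr, Pdgfrb, Dcn, C1qb, Sctr, Cdh13, Cyp3a11 and Ctnnd1) were chosen after their values were seen. Alternatives were other scalings, count filters, a prior count of 0.5, TPM or FPKM in place of counts (pseudocount 1), trend removal, and the most abundant transcript alone, with DESeq2 1.42.0 for its size factors.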

Additional observations from a re-analysis of the deposited data

How the results depend on the processing

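No paired analysis was possible because each group has 1 library. The number of the 10 genes past 2-fold was 4, with 2 under TPM, 1 under FPKM and 2 after removal of the GC content and length trends, where 10.1%, 6.49% and 7.39% of all genes were above 2-fold. It was 3 under DESeq2 size factors, library totals or the upper quartile, beside 21.7%, 21.2% and 18.5% of all genes. Their median log2 ratio of 0.61 was 0.40 under the upper quartile, 0.44 under TPM and 0.36 under FPKM, where the pseudocount of 1 lowers the ratios of genes of low level. Scaling was first computed over the 15857 genes kept, and then, with those values seen, over the whole table as planned. The former scalings are given as alternatives chosen after seeing the data: TMM gave 4 genes past 2-fold with Tbx3 at 1.01, DESeq2 size factors gave 4 with Tbx3 at 1.02, and the upper quartile gave 3 with Tbx3 at 0.88, beside 22.5%, 22.5% and 19.98% of all genes. The call of Tbx3 thus depends on the scaling. Removal of the trends turned the direction of Lgr5 (-0.49) and of Wnt2 (0.07, whose interval had held 0). It also turned the medians of the nuclear partners (0.0463), hepatocyte markers (0.0843) and cholangiocyte markers (0.0892). The median of the list for Dishevelled proteins and the destruction complex turned as well (0.16). The most abundant transcript alone turned Axin2 (-0.24) and Tbx3 (-0.19). The median of the pericentral list was -0.0707 under the upper quartile, and that of the secreted inhibitors 0.33 with no count filter. The median of the list for Dishevelled proteins and the destruction complex was 0.29 with at least 50 counts. The cholangiocyte median was 0.0247 with either change of the filter. The upper quartile moved the median of all genes to -0.22. With 1 library per group, variation among mice is unknown, and low counts limit the ratios of several ligands and inhibitors.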

Other observations

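Markers of the other liver cell types gave these values. Of 15 hepatic stellate cell markers, 6 were higher and 9 lower, with a median log2 ratio of -0.50 (-0.35 after removal of the GC content and length trends) and a summed level of 404 and 330 TPM. Bmp5, Rgs5, Hgf and Lrat were the 4 past 2-fold higher (log2 ratios 2.21, 1.58, 1.52 and 1.46), and each was below 1 after removal of the GC content and length trends (0.90, 0.27, 0.24 and 0.05). The 2 below 0.5-fold, named after their values were seen, were Ngfr (542 and 165 counts, -1.44) and Pdgfrb (1129 and 441 counts, -1.09), which were at -0.80 and -0.89 after removal, when 1 other marker, Dcn (0.33 before), likewise chosen after its values were seen, was at -1.18. Ecm1, the most abundant, had a log2 ratio of -0.50, which turned to 0.29.

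Of 11 Kupffer cell and macrophage markers, 4 were higher and 7 lower, with a median log2 ratio of -0.40 (-0.13 after removal of the trends) and a summed level of 927 and 580 TPM. The scavenger receptor gene Marco had 162 and 414 counts (log2 ratio 1.60, and 2.22 after removal of the trends), the complement receptor gene Vsig4 had 649 and 1550 counts (1.52) and Timd4 had 175 and 388 counts (1.40), while the complement gene C1qc had 5591 and 2283 counts (-1.03) and C1qb, the other marker below 0.5-fold and chosen after its values were seen, 6209 and 2563 (-1.01). Vsig4 (0.89), Timd4 (0.73), C1qc (-0.27) and C1qb (-0.26) were no longer past the fold limits after removal. Cd5l, the most abundant, had a log2 ratio of -0.76, or -0.42 after removal. Among 9 cholangiocyte markers 7 were kept, with a median log2 ratio of -0.07 (0.0892 after removal of the trends). Pkhd1 had 215 and 428 counts (1.25, and 0.09 after removal of the trends), Spp1 had 1900 and 1365 (-0.21, and -1.02 after removal, below 0.5-fold), and Sctr, chosen after its values were seen, was at 0 in both libraries. The 7 central vein endothelial cell markers, which include Wnt2 and Rspo3, had a median log2 ratio of -0.31 (-0.01 after removal of the trends), and Thbd had 363 and 140 counts (-1.10, and -0.97 after removal, no longer below 0.5-fold), while Cdh13 (-0.31 before), chosen after its values were seen, came to -1.14. Of the 13 hepatocyte markers, Tdo2 (16398 and 49900 counts, 1.87) and Apob (71263 and 209460 counts, 1.82) were past 2-fold, and the median was -0.21, or 0.08 after removal of the trends. Tdo2 was then at 0.59 and Apob at 0.08, 0 of the 13 were above 2-fold, and 1 was below 0.5-fold, Cyp3a11 (-0.21 before and -1.37 after), named after its values were seen. The 4 cadherin partners of beta-catenin each had a log2 ratio above 0, with a median of 0.43 (0.35 after removal). Ctnna1 had a log2 ratio of 0.53, or 0.42 after removal. Ctnnd1, chosen after its values were seen, was at 0.02 with an interval from -0.03 to 0.07 that held 0. After removal Ctnnd1 turned direction, to -0.67. The part of cell type content in these values was not tested.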
